A study of Mus musculus with 5 samples.

Results

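The genes described here are the clustered histone genes, those whose messenger RNAs supply histone proteins while DNA is copied. They were taken by symbol: every protein-coding gene whose GENCODE name begins with Hist1h, Hist2h, Hist3h or Hist4h, 67 genes of the 55385 listed. They divide into 6 H1 genes, 18 H2A genes, 18 H2B genes, 12 H3 genes and 13 H4 genes. Of these, 54 lie on chromosome 13 between 21715763 and 23934851, 10 on chromosome 3 between 96219865 and 96270132, 2 on chromosome 11 between 58948920 and 58956830, and Hist4h4 alone on chromosome 6 (136801553 to 136804415), all in GRCm38 coordinates. Hist1h1t, Hist1h2aa and Hist1h2ba, which the symbol rule also takes in, are known as testis forms, and Hist1h1t had at most 9 counts in a library while the other two had 0 in all 5 libraries.

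The data come from Surface-seq, which sequences RNA held by plasma membrane that was purified from EL4 cells, a mouse T lymphoma line grown in suspension, and wrapped outer side out around polymer particles (membrane-coated nanoparticles). All 5 libraries carry the same cells and no treatment. In the 3 libraries of variation A (A1, A2 and A3) all RNA was drawn from the particles with phenol and chloroform, its ends were repaired, and both adaptors were then ligated, so RNA of either membrane face could enter. For the 2 libraries of variation B (B1 and B2) the 3′ adaptor was ligated on the intact particles, a step meant to enrich RNA facing outwards, and the RNA was isolated with silane beads afterwards; no end repair is named for this variation. The face of the membrane and the steps of the protocol therefore cannot be told apart. Nothing in the labels says that the libraries came from separate cultures, so every p-value here measures only the spread between these 5 libraries.

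An H1 histone sits on the linker DNA between nucleosomes, and H2A, H2B, H3 and H4 form the protein core around which DNA is wound. Clustered histone genes are transcribed in S phase, and most of their messages end not in a poly(A) tail but in a short conserved stem-loop that is bound by the stem-loop binding protein and cut by a dedicated machinery containing the U7 small nuclear RNA. Proliferating lymphoid lines are known to hold large amounts of these messages, most of them on cytoplasmic ribosomes.

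The stem-loop is shown first because most of these genes share it. Its consensus was drawn from the genes' own GENCODE M21 transcript models: hairpins with a perfect stem of 6 pairs and a loop of 4 bases were listed, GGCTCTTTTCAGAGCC was the one found in most genes (26), and the bases common to it and to 4 related hairpins gave the 16 letters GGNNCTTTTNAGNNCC, which were then searched in the sense strand of all models. That many of these genes match follows in part from this choice. They occurred in 44 of the 67 genes (65.7%), namely 4 of 6 H1, 11 of 18 H2A, 10 of 18 H2B, 8 of 12 H3 and 11 of 13 H4 genes. Among 21901 protein-coding genes they occurred in 72 (0.329%), and on the opposite strand in 16. The match began 21 to 58 bases after the stop codon (median 31). The genes whose models held no match had shorter models, with a median length of 411 bases against 620.5, and no match says only that these letters are not in the model. Sites of the genes that the results turn on are given below, 5′ to 3′ in the sense of the gene, with the 16 matched bases in capitals.
Hist1h1d: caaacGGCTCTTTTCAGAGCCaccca
Hist1h2ad: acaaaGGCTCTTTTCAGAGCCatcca
Hist1h2ag: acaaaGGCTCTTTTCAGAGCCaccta
Hist1h2bm: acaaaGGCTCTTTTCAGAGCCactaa
Hist1h3e: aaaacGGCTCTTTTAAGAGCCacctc
Hist1h4c: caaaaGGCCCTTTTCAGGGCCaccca
Hist1h4j: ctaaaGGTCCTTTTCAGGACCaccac
Hist4h4: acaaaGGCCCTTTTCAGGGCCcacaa
The first 4 of these genes are among the 26 that carry the core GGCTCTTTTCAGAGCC, so the same 16 bases stand in genes that were higher, lower and not called between the variations. All 11 matching H4 genes carry another stem: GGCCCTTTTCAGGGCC in 7 of them, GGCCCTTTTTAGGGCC in Hist1h4i and Hist2h4, and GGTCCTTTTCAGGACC in Hist1h4b and Hist1h4j. The printed sites lie at chr13:23555782-23555807 (Hist1h1d, plus strand), chr13:23574890-23574915 (Hist1h2ad, plus), chr13:22042478-22042503 (Hist1h2ag, minus), chr13:21722501-21722526 (Hist1h2bm, plus), chr13:23561898-23561923 (Hist1h3e, minus), chr13:23698084-23698109 (Hist1h4c, minus), chr13:21735432-21735457 (Hist1h4j, plus) and chr6:136803993-136804018 (Hist4h4, minus) of GRCm38. Each lies after the stop codon, in the 3′ UTR.

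The libraries differed in depth and in make-up. The A libraries held between 1187117 and 4502174 counts on genes and the B libraries 21862003 and 22980172. After scaling to a common total (CPM), 3 counts, the floor used here, correspond to 0.666 to 2.53 CPM for variation A and 0.131 to 0.137 CPM for variation B. Intervals and floors cover counting error only, since the reads carry no molecular identifiers. Of 10 T cell marker genes, all 10 had counts in every library, with a summed CPM of 519.7 to 668.8 in variation A and 1792 to 1892 in variation B. On the TMM scale used for the tests below, which sets the bulk of genes level, the sums were 763.3, 951.9 and 913.9 against 1009 and 975, and 2 of the 10 genes were called, both higher in variation B. The 5 B cell markers summed to at most 1.11 CPM, the erythroid markers to at most 2.00 and the myeloid markers to at most 5.79, among which Lyz2 had 0 counts in A1, A2 and A3, 73 in B1 and 133 in B2. The fibroblast and epithelial markers stayed below 1 CPM in each library. Of the 2 endothelial markers Cdh5 had at most 1 count, and Pecam1 brought their sum to 21.3, 10.2 and 11.0 CPM in the A libraries and 16.3 and 23.4 CPM in the B libraries. Whether these markers have a part in any result was not tested. A1 stood apart from the other A libraries in several values below. Values are therefore given library by library, always in the order A1, A2, A3 and then, after the word against, B1, B2.

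The clustered histone genes were present in all libraries, at 1411, 3840 and 999 counts against 31692 and 32851. As a share of the library total this was 0.0613% (95% Wilson interval 0.0582 to 0.0646), 0.0853% (0.0826 to 0.0880) and 0.0842% (0.0791 to 0.0895) against 0.145% (0.143 to 0.147) and 0.143% (0.141 to 0.144). Both B libraries lay above all 3 A libraries on this scale, with a mean of 0.144% ± 0.00141 (SD, n = 2) against 0.0769% ± 0.0135 (SD, n = 3). The order turned with the denominator. Over counts on protein-coding genes the mean was 0.305% ± 0.129 in variation A and 0.225% ± 0.00452 in variation B, and the groups overlapped because A1 stood at 0.156% while A2 and A3 stood at 0.377% and 0.382%. With libraries scaled by TMM the summed level was 699.8, 1494 and 1480 CPM against 773.4 and 777.6, so that the B libraries lay between A1 and the other A libraries. No single statement of more or less histone message per library therefore held under every scaling, and no test was run on these sums. These are bulk libraries, so fewer cells holding a message and less message per cell cannot be told apart.

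What needed no scaling between libraries was the make-up of the histone counts, and it differed between the variations in all 5 classes. The H1 genes took 35.6%, 31.9% and 28.3% of the counts on the 67 genes against 47.0% and 50.4%. For the H2A genes the shares were 5.53%, 9.17% and 6.31% against 19.7% and 18.2%. Both of these classes thus held a larger part of the histone counts in each B library than in any A library. H2B took 19.6%, 10.1% and 10.9% against 8.14% and 8.43%, and H3 took 11.3%, 12.03% and 15.1% against 6.25% and 6.91%. H4, the largest class in A2 and A3, took 28.0%, 36.9% and 39.3% against 18.9% and 16.1%. These 3 classes were smaller in each B library than in any A library. On group means, the H1 share was 1.52 times and the H2A share 2.71 times as large in variation B, while the H2B, H3 and H4 shares were 0.613, 0.513 and 0.504 times as large. The 5 shares sum to the whole, so a larger part for one class lowers the others. Separation of 3 libraries from 2 is common in single genes. On the TMM scale 31.2% of all genes tested had variation B above and 26.7% below. No share over other gene groups is given, so the separation of the classes has no background. As parts of the library total, the B to A ratios of the class means were 2.89 for H1 and 4.95 for H2A, without overlap, but 1.20 for H2B, 0.949 for H3 and 0.925 for H4, where the groups overlapped. As parts of the counts on protein-coding genes they were 1.16 (overlapping) and 1.90 for H1 and H2A, and 0.507, 0.367 and 0.354 for H2B, H3 and H4.

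**Figure D1:**
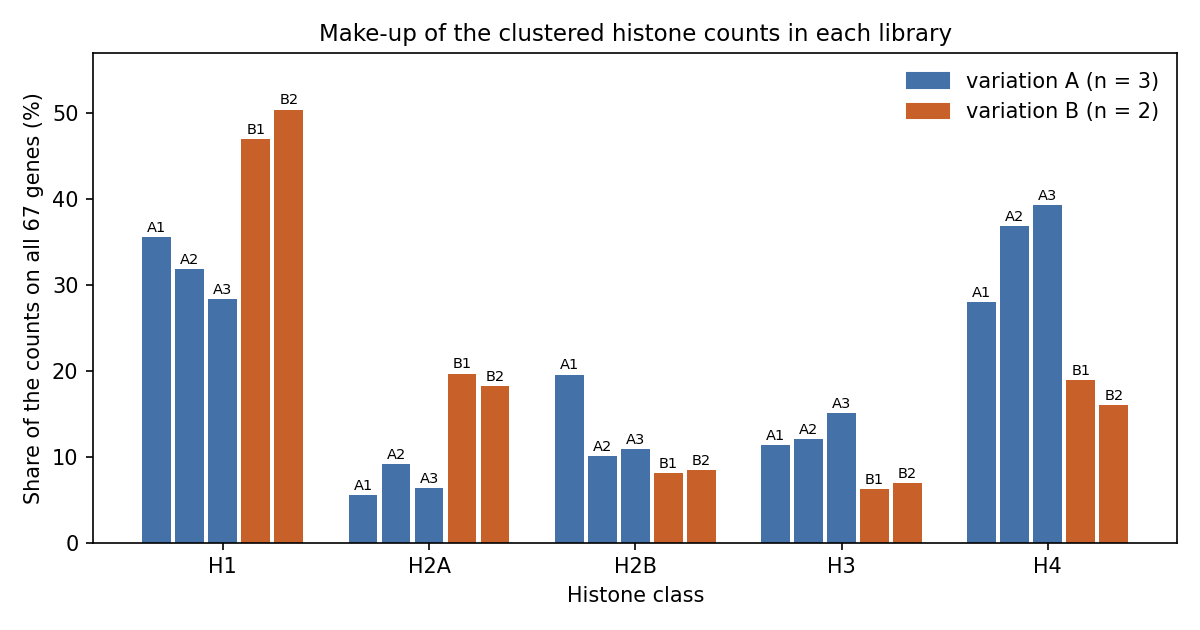
Share of the counts on the 67 clustered histone genes (y axis, percent) taken by each class (x axis), with 1 bar per library, blue for variation A and orange for variation B. In the H1 and H2A classes both orange bars stand above the blue ones, at 47.0% and 50.4% for H1, and in H2B, H3 and H4 both stand below them, at 18.9% and 16.1% for H4.

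A few genes held much of each class. Hist1h1a was the most counted clustered histone gene in A1 (12.5% of the histone counts), B1 (17.8%) and B2 (20.6%), Hist1h1b in A2 (13.5%) and Hist4h4 in A3 (13.3%). The share of Hist1h2ad was 0.213%, 0.417% and 0.200% against 6.18% and 6.67%. With Hist1h1a and Hist1h2ad left out, a choice made after seeing the data, H1 still took 26.4%, 29.4% and 25.5% against 38.4% and 41.0%, and H4 took 32.1%, 38.5% and 41.0% against 24.9% and 22.1%. The H2B shares then overlapped, at 22.4%, 10.5% and 11.4% against 10.7% and 11.6%, so the separation of that class did not hold without them.

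Gene by gene, variation B was compared with variation A by edgeR's quasi-likelihood test on TMM-scaled counts, with Benjamini-Hochberg adjustment over all 10287 genes that passed the filter on low counts. Calls needed an adjusted p below 0.05 together with more than a 2-fold change. Of the 67 clustered histone genes 49 were tested, and 3 of them were higher in variation B, 19 were lower and 27 were not called. Over all genes tested, 11.0% were called higher and 12.4% lower (10.3% and 12.0% of the protein-coding genes tested), beside 6.12% and 38.8% of the 49. Scaled by library totals alone the calls turned to 14 higher and 3 lower (28.6% and 6.12%), where 55.1% of all genes tested were higher and 2.93% lower. The median log2 fold change of the 49 genes was -0.99, against 0.05 over all genes tested (quartiles -0.81 and 0.84). Leaving out the fitted value of Hist3h2a, which had 0 counts in variation A, the values ran from -3.76 to 3.70 with a median of -1.07, and with that gene at its bound the median was -1.16. That bound, -1.55, sets the lower B level over 3 counts in A3, so it is a lower limit and not an estimate. DESeq2 gave a median of -0.91 for the same 49 genes and 0.11 for the same 10287. Over all 25327 genes with a count, which it takes without a filter, its median was -0.91, and over the 56 histone genes among them -1.002. An unadjusted p under 0.05 was found for 27 of the 49, against 40.0% of all genes tested. Between groups, 22 genes did not overlap with variation B below variation A (26.7% of all genes tested), and 6 did not overlap with variation B above (31.2%).

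**Figure D2:**
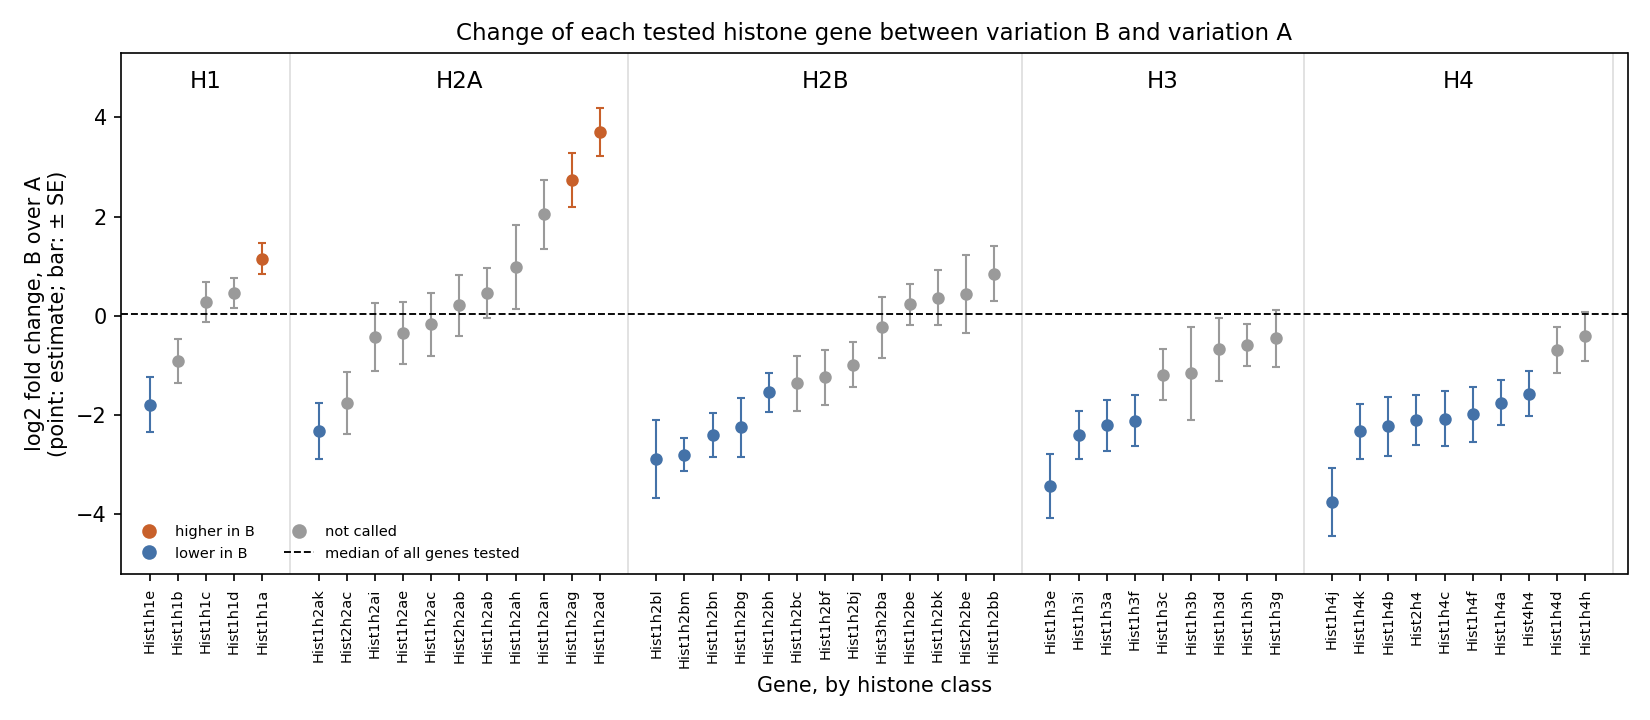
Log2 fold change of variation B over variation A (y axis, point and bar for the estimate ± SE) for 48 of the 49 tested histone genes, in order of size within each class (x axis); Hist3h2a is not drawn because it had 0 counts in variation A. Orange points were called higher in variation B, blue points lower, grey points not called, and the dashed line is the median of all genes tested (0.05). All H3 and H4 points lie below the line, whereas H1 and H2A genes lie on both sides.

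The classes differed in where their genes fell. Among 5 tested H1 genes 1 was higher and 1 lower, with a median log2 fold change of 0.28. For 12 tested H2A genes the counts were 2 higher and 1 lower and the median 0.33, or 0.02 with Hist3h2a at its bound. Of 13 tested H2B genes 5 were lower and the other 8 were not called (median -1.24). Of the 9 tested H3 genes 4 were lower (median -1.19), and of the 10 tested H4 genes 8 were lower (median -2.03), and all 19 of these H3 and H4 genes had a negative estimate. The signs depend on the scaling. Scaled by library totals alone, the median of all genes tested moved from 0.05 to 1.50 and the class medians became 1.84 for H1, 1.88 for H2A, 0.23 for H2B, 0.28 for H3 and -0.44 for H4. The calls under that scaling were 3 higher in H1, 7 higher in H2A, 4 higher and 1 lower in H2B, 1 lower in H3 and 1 lower in H4. Of all genes tested 55.1% were then higher and 2.93% lower. The higher calls of H1 (3 of 5) and H2A (7 of 12) lay close to that share. Most calls of H2B turned to higher, yet its 4 of 13 lay below that share. The H2B, H3 and H4 medians thus lay below that of all genes under both scalings, while the sign of the H2B and H3 medians changed. The place of H1 and H2A is less firm. Once Hist3h2a was set at its bound, a lower limit, the H2A median lay below that of all genes. With Hist3h2a left out the H2A median was 0.21, above that of all genes. Without A1 both medians (0.03 for H1 and 0.01 for H2A) lay below that of all genes (0.16). Without a filter on low counts the H1 median, then over 6 genes, was negative (-0.09 against 0.46 for all genes, and -0.25 against -0.91 in DESeq2).

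Calls in the lower direction also depended on single libraries. The 19 lower calls became 23 without A1, 5 without A2, 5 without A3, 2 without B1 and 1 without B2, and over all genes the 1276 lower calls became 1821, 442, 466, 240 and 137. Hist1h2bm was lower in all 5 of these fits. Hist1h2bn, Hist1h3e, Hist1h3i and Hist1h4j were lower in the 3 fits that left out an A library and in neither of those that left out a B library. In the other direction Hist1h2ad was higher in all 5 fits, Hist1h2ag was not called without B1 or without B2, and Hist1h1a was called in the fit without A1 and in none of the other 4. The 3 higher calls became 5 without A1, 3 without A2, 2 without A3, and 1 without B1 or without B2, while the 1135 over all genes became 2526, 420, 431, 200 and 161.

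The H1 genes encode linker histones. Hist1h1a (chr13:23763666-23764406, plus strand) stood at 87.8, 55.2 and 56.3 TMM-scaled CPM against 138 and 159.8. Both B libraries were above every A library, and the log2 fold change was 1.16 (SE 0.31, edgeR adjusted p = 0.0313). Its estimate was 1.04 to 1.25 in the 4 fits without A2, A3, B1 or B2, in which it was not called. Hist1h1b had the highest mean log2 level per length of all 67 genes, at 86.0, 155.5 and 139.5 CPM per kb of exon against 217 and 187.7. That rank is a mean over the 5 libraries. Hist1h1a, at 103.8, 42.6 and 43.2 against 349 and 396.5, was higher per length in A1, B1 and B2. On the TMM scale Hist1h1b stood at 72.9, 202.3 and 182.2 CPM against 86.0 and 75.8, so the B libraries fell between A1 and the other A libraries. It was not called (log2 fold change -0.91, SE 0.44, edgeR adjusted p = 0.156), and by library totals alone its sign changed, to 0.67. Hist1h1c, at 17.4, 46.7 and 32.6 TMM-scaled CPM against 34.5 and 44.0, also overlapped (log2 fold change 0.28). Hist1h1d has the longest model of the 67 genes, 7425 bases of exon, of which 4884 follow the stem-loop, and it took 11.0% and 12.2% of the histone counts in B1 and B2 against 4.51% to 7.09% in variation A. Its TMM-scaled levels did not overlap (49.6, 79.7 and 66.7 against 85.0 and 95.2 CPM), but the change was not called (log2 fold change 0.46, SE 0.30, edgeR adjusted p = 0.274). Hist1h1e was the H1 gene called lower, at 21.3, 91.4 and 80.0 CPM against 19.7 and 17.2 (log2 fold change -1.79, SE 0.56, edgeR adjusted p = 0.0483). The call was near the threshold and was made in 6 of 17 alternative settings; it was lost, for example, with the replicate number as a block, with the length trend removed, by library totals alone and without A2, A3, B1 or B2. In that gene A1 lay close to the B libraries, and 496 bases of its model overlap Hist1h2be and a pseudogene.

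H2A genes encode the core histone that pairs with H2B. Hist1h2ad (chr13:23574381-23574952, plus strand) showed the largest rise of the 3 called: 3, 16 and 2 counts against 1957 and 2192, or 1.49, 6.22 and 2.96 TMM-scaled CPM against 47.8 and 51.9. The groups were far apart, with a log2 fold change of 3.70 (SE 0.48, edgeR adjusted p = 0.0026). The estimate ranged from 3.31 to 5.26 over 17 alternative settings and was called in all of them. Hist1h2ag (chr13:22042460-22042944, minus strand) had 6, 7 and 0 counts against 595 and 723, a log2 fold change of 2.74 (SE 0.55, edgeR adjusted p = 0.0119). The count of 0 in A3 allows up to 2.53 CPM there, against 27.2 and 31.5 CPM in B1 and B2. Hist1h2an lay just outside the threshold and was called higher in 7 of 17 alternative settings, the replicate block among them, at 3, 23 and 0 counts against 839 and 682 (log2 fold change 2.05, SE 0.70, edgeR adjusted p = 0.0647).

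The other H2A genes varied. Hist3h2a had 0 counts in each A library against 62 and 72, but its B levels of 2.84 and 3.13 CPM were near what 3 counts are worth in A3, so no fold is given (edgeR adjusted p = 0.0503). It was called higher in 3 of 17 alternative settings, namely RLE factors, library totals alone and the length trend removed. Hist1h2ab stood at 4.46, 15.2 and 19.3 TMM-scaled CPM against 17.6 and 15.7, and Hist1h2ae at 4.46, 31.5 and 25.2 against 15.8 and 15.7. Both overlapped and neither was called, with log2 fold changes of 0.46 and -0.35, and the sign for Hist1h2ae became positive by library totals alone (1.27) and without A2 (0.45). Hist1h2ak was the H2A gene called lower, at 7.44, 32.7 and 23.7 CPM against 4.32 and 4.17 (log2 fold change -2.32, SE 0.57, edgeR adjusted p = 0.0230). It was not called without A2, A3, B1 or B2, where its estimates were -1.64, -2.19, -2.35 and -2.30. Of the remaining tested H2A genes Hist2h2ac had the lowest estimate (-1.76, edgeR adjusted p = 0.0732) and Hist1h2ah the highest (0.99).

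A limit applies to the whole H2A class. Every one of the 18 H2A genes overlaps another annotated gene, and 17 of them a small gene model typed as miRNA of 129 to 144 bases, such as Gm44359 over 138 bases of Hist1h2ad and Gm44486 over 138 bases of Hist1h2ag. These small genes all had 0 counts. Reads lying over both genes were left out of the counting, so the H2A counts rest on the rest of each model. With every member that overlaps another gene left out, 34 tested genes remained, and Hist1h1a was the one called higher while 16 were lower. H1 then took 36.9%, 31.3% and 26.6% of the histone counts against 58.7% and 62.5%, and H4 took 30.8%, 42.5% and 43.7% against 24.3% and 20.1%.

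**Figure D3:**
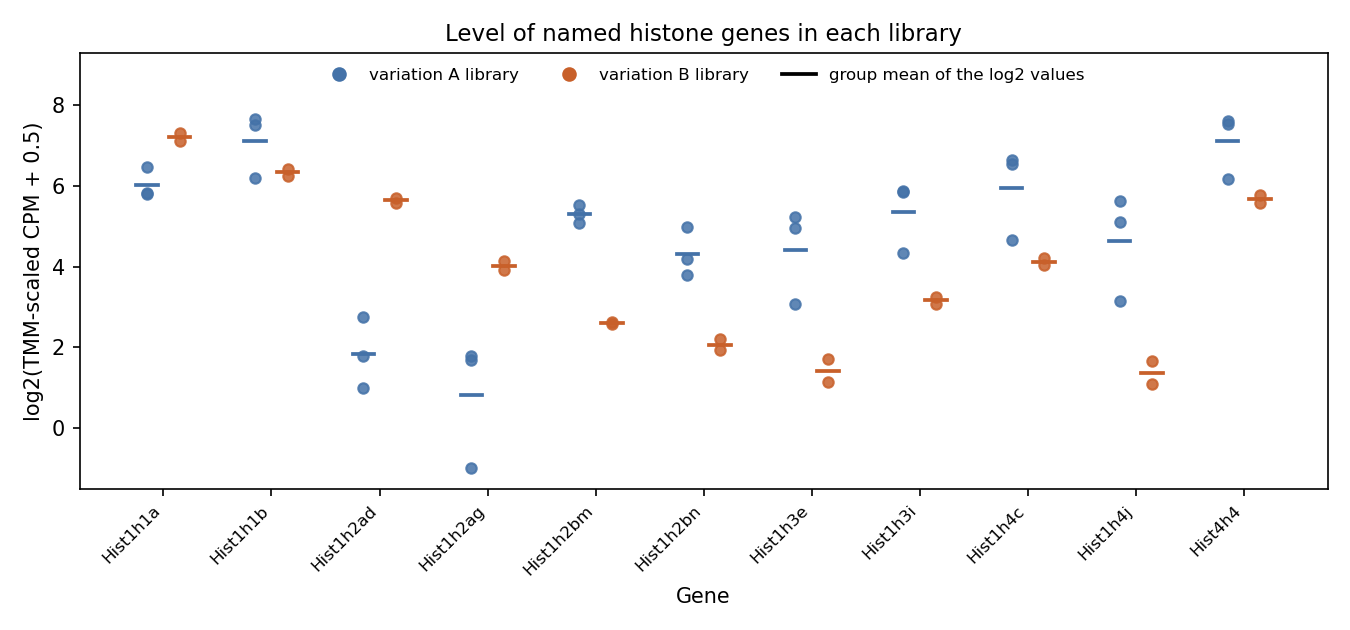
Level of 11 named histone genes (x axis) in each library, as log2 of TMM-scaled CPM plus 0.5 (y axis), with blue points for the 3 variation A libraries, orange points for the 2 variation B libraries and a line at each group's mean. Hist1h1a, Hist1h2ad and Hist1h2ag lie higher in both B libraries, Hist1h1b overlaps, and the others lie lower in both B libraries; A1 is the lowest blue point in every H3 and H4 gene drawn.

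H2B genes encode the partner of H2A in the nucleosome core. Hist1h2bm (chr13:21722044-21722567, plus strand) had 67, 100 and 31 counts against 235 and 230, which is 33.2, 38.9 and 45.9 TMM-scaled CPM against 5.74 and 5.44. The A libraries were close to each other in this gene and the B libraries far below, with a log2 fold change of -2.80 (SE 0.33, edgeR adjusted p = 0.0017). By CPM on library totals the groups did not overlap either (29.1, 22.2 and 26.1 against 10.8 and 10.0), and the gene was called lower in 17 of 17 alternative settings. Hist1h2bn stood at 13.4, 17.9 and 31.1 TMM-scaled CPM against 3.32 and 4.12 (log2 fold change -2.40, SE 0.44, edgeR adjusted p = 0.0095). Hist1h2bl, with 7, 16 and 5 counts against 47 and 14, had the largest fall of the class but a wide error (log2 fold change -2.88, SE 0.79, edgeR adjusted p = 0.0328), and it was not called when any of A2, A3, B1 or B2 was left out. The other lower calls were Hist1h2bg (-2.25) and Hist1h2bh (-1.54). Hist1h2bj was among the 3 highest H2B genes per length by mean log2 level over the 5 libraries. It was not called, at 15.9, 10.9 and 5.93 CPM against 4.91 and 6.72 (log2 fold change -0.99, or 0.42 by library totals alone). Hist1h2bb had the highest estimate of the class, 0.85 (SE 0.55).

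Many H2A genes stand head to head with an H2B gene, within 175 to 301 bases, and are transcribed away from it, so the pair gives a readout free of library scaling. Both genes were tested in 8 such pairs. The ratio of H2A to H2B counts was 0.250, 1.07 and 0.400 against 13.7 and 29.2 for Hist1h2ad and Hist1h2bf, which are 184 bases apart. For Hist1h2ag and Hist1h2bj (269 bases apart) it was 0.188, 0.250 and 0 against 2.96 and 2.55. In 5 of the 8 pairs both B libraries had a higher ratio than any A library, in 2 pairs the groups overlapped, and in Hist2h2ac with Hist2h2be the B ratios were lower (17.0, 2.8 and 3.0 against 1.6 and 0.562, on 1 to 5 counts of Hist2h2be in each A library). Such separation is common in single genes: on the TMM scale 31.2% of all genes tested had variation B above and 26.7% below. No share over other gene pairs is given, so the count of pairs has no background. Hist1h2ak and Hist1h2bn, 295 bases apart, were called lower together (-2.32 and -2.40). The overlapping small genes described for H2A touch one side of each of these ratios, and their part in the ratios was not tested.

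**Figure D4:**
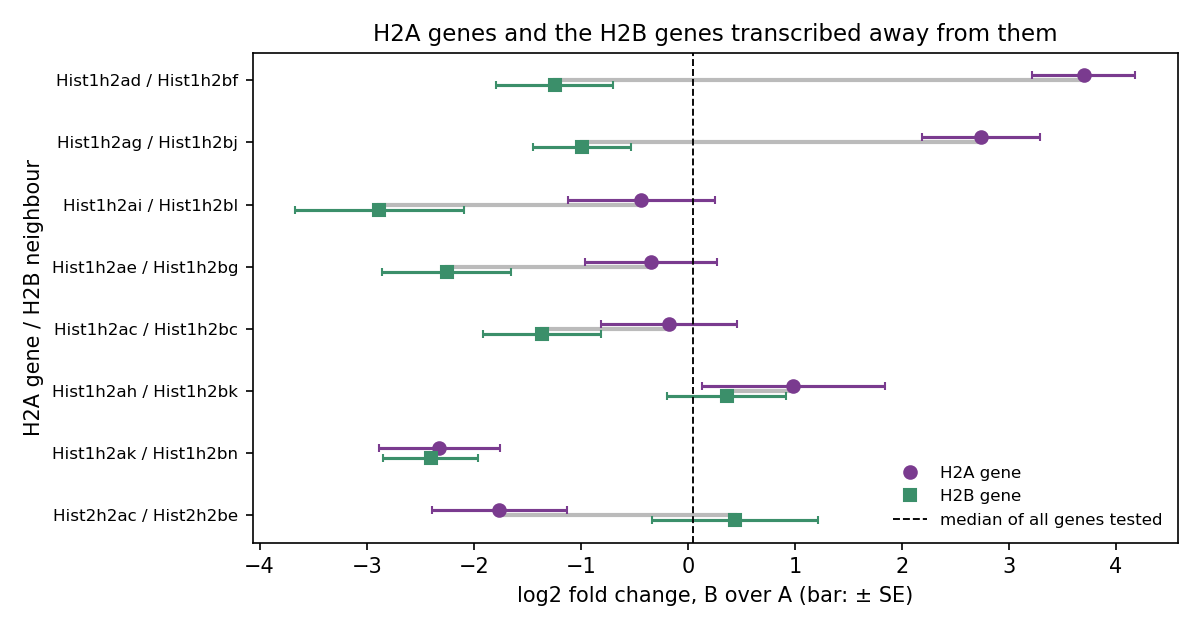
Log2 fold change of variation B over variation A (x axis, ± SE) for the 8 head-to-head pairs of an H2A gene (purple circle) and its H2B neighbour (green square), ordered by the signed difference, H2A estimate minus H2B estimate. The H2A gene lies to the right of its neighbour in 7 of the 8 pairs, by the widest margin in Hist1h2ad with Hist1h2bf (3.70 against -1.24).

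The H3 genes encode a core histone whose tail carries many regulatory marks. Hist1h3e (chr13:23561534-23562369, minus strand) stood at 7.93, 30.7 and 37.0 TMM-scaled CPM against 2.76 and 1.70. All A libraries were above the B libraries, A1 by the least, and the log2 fold change was -3.44 (SE 0.64, edgeR adjusted p = 0.0098). Hist1h3i had the highest mean log2 level per length of the class, at 42.3, 81.6 and 79.9 CPM per kb against 41.1 and 35.7, and was lower in variation B (log2 fold change -2.40, SE 0.49, edgeR adjusted p = 0.0126). It led the class in the A libraries only, since Hist1h3h stood at 62.1 and 63.1 CPM per kb in B1 and B2. Hist1h3a (-2.21) and Hist1h3f (-2.11) were the other lower calls. Hist1h3h, at 10.9, 25.3 and 28.1 TMM-scaled CPM against 13.6 and 14.1, and Hist1h3c, at 13.9, 29.95 and 34.1 against 6.44 and 15.8, overlapped and were not called. Their log2 fold changes were -0.59 and -1.19, and by library totals alone both turned positive (0.96 and 0.36). Hist1h3h and Hist1h3i share 85.6% of the 30-base words of their models, so reads from one could be lost or placed on the other, and their split is uncertain. Of the words of Hist1h3e, 84.9% occur in transcripts of other genes and 76.0% in Hist1h3f, so its counts carry the same limit.

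The H4 genes encode the most conserved core histone, and 8 of its 10 tested genes were lower in variation B. The count of lower calls changed with single libraries: 9 of 12 without A1 and 1 of 12 each without A2 or A3. Of all genes tested 15.0%, 3.64% and 3.86% were lower in these 3 fits. The fits without B1 or without B2 leave 1 B library, and their class medians were -2.20 and -1.68. By library totals alone 1 of the 10 genes was lower (2.93% of all genes tested). With the replicate number as a block 5 of the 10 were (7.90% of all genes), Hist1h4a, Hist1h4f and Hist4h4 being lost. The class median lay between -2.27 and -1.60 with 1 library left out, and without B2 the H3 median was the lower of the 2 (-1.99 against -1.68), as it was with the replicate number as a block (-1.81 against -1.56). Hist1h4j (chr13:21735064-21735837, plus strand) had 17, 88 and 33 counts against 67 and 112. On the scale between libraries that is 8.43, 34.2 and 48.9 TMM-scaled CPM against 1.64 and 2.65, the largest fall among the 49 tested genes, with a log2 fold change of -3.76 (SE 0.69, edgeR adjusted p = 0.0095). Hist1h4k stood at 14.4, 37.3 and 51.8 CPM against 8.62 and 4.62 (log2 fold change -2.33, SE 0.56, edgeR adjusted p = 0.0214). Hist1h4c, the H4 gene on which A2 and A3 placed most counts after Hist4h4, stood at 24.8, 93.7 and 99.2 CPM against 18.0 and 15.9 (log2 fold change -2.08, SE 0.55, edgeR adjusted p = 0.0302). Hist1h4a gave -1.75 (SE 0.46, edgeR adjusted p = 0.0284), at 16.4, 33.1 and 47.4 CPM against 10.4 and 8.05. In all 4 of these genes A1 was the lowest A library yet above both B libraries. Hist4h4, which lies alone on chromosome 6, was lower too: 71.4, 184.4 and 197 CPM against 47.2 and 54.1 (log2 fold change -1.57, SE 0.45, edgeR adjusted p = 0.0382). Hist1h4b, Hist1h4f and Hist2h4 were the other lower calls, from -2.23 to -1.99, and Hist1h4d (-0.69) and Hist1h4h (-0.42) were not called.

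The split by stem-loop was read over all tested genes and by class. Tested genes with a match numbered 33, of which 2 were higher and 13 lower (median log2 fold change -1.16), and tested genes without one numbered 16, of which 1 was higher and 6 lower (median -0.75). By class, the medians with and without a match were 0.28 and 0.12 for H1, 0.46 and 0.21 for H2A (-0.17 with a match once Hist3h2a was set at its bound), -0.99 and -1.88 for H2B, -1.65 and -0.59 for H3, and -2.03 and -2.04 for H4, so the order differed between classes. Both higher H2A genes had a match and the lower one had none, whereas in H1 the lower gene had a match and the higher one had none. No test was run on these splits, some of which hold 2 or 3 genes a side. Across the 49 genes the rank correlation of the log2 fold change was 0.18 with exon length, -0.18 with the share of 30-base words found in other genes and -0.28 with the mean level. These correlations are descriptions over genes that share libraries and sequence. Over 9522 protein-coding genes the correlation with exon length was also 0.18, and the clustered histone genes tested are short, with a median of 572 bases of exon against 4755.5 for those genes. With a trend of counts with exon length taken out of each library, 5 of the 49 were higher and 18 lower. These are 10.2% and 36.7%, beside 9.59% and 13.7% of all genes tested, so the higher share lay close to the background.

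Some clustered histone genes had no counts. In all 5 libraries 11 of the 67 genes were at 0: 5 H2A (Hist1h2aa, Hist1h2ao, Hist1h2ap, Hist2h2aa1 and Hist2h2aa2), 4 H2B (Hist1h2ba, Hist1h2bq, Hist1h2br and Hist2h2bb) and 2 H3 genes (Hist2h3b and Hist2h3c1). Reads with several alignments were left out, and in 9 of these 11 genes at least 90% of the 30-base words of the model also occur in transcripts of other genes, against 6 of the 56 genes with counts. Hist1h2bq and Hist1h2br share 100% and 99.8% of their words with each other, and Hist2h2aa1, Hist2h2aa2, Hist2h2bb, Hist2h3b and Hist2h3c1 lie wholly under other annotated genes. A count of 0 in these 9 therefore does not show absence. The other 7 genes with counts but no test were Hist1h1t, Hist1h2af, Hist1h2bp, Hist2h3c2, Hist1h4i, Hist1h4m and Hist1h4n, none with more than 120 counts in a library.

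Histone genes outside the clusters, whose messages are mostly polyadenylated and made outside S phase too, were read beside them. Of 11 such genes 9 were tested, 1 was higher (11.1%) and 4 were lower (44.4%), beside 11.0% and 12.4% of all genes tested, with a median log2 fold change of -1.22. H2afz, a variant found at gene starts, had the highest mean log2 level per length of them, though H2afx lay above it in A2 and A3 and H2afv in B1. H2afz stood at 169.6, 132.2 and 134.8 TMM-scaled CPM against 49.5 and 75.9 (log2 fold change -1.22, edgeR adjusted p = 0.0296), whereas its near relative H2afv stood at 17.8, 17.1 and 14.8 against 46.4 and 49.7 (1.51, edgeR adjusted p = 0.0099). H2afy, encoding macroH2A (-1.55), and Cenpa, encoding the centromeric H3 (-1.44), were also lower, while H3f3a (0.12) and H3f3b (0.19), which encode H3.3, were not called. H2afx is the one gene of this list that carries the stem-loop motif, and it was lower too, at 29.3, 133 and 146.6 CPM against 23.9 and 23.6 (log2 fold change -2.10, edgeR adjusted p = 0.0391). By library totals alone the list gave 4 higher calls and the other 5 genes were not called, so the direction of its calls turned. Under that scaling 55.1% of all genes tested were higher. With the replicate block the list gave 1 higher and 1 lower call, where 7.40% and 7.90% of all genes tested were called. The 5 calls became 5 without A1, 2 without A2 and 1 without A3. Of all genes tested, 20.8% were then higher and 15.0% lower without A1, 3.46% and 3.64% without A2, and 3.57% and 3.86% without A3. With B1 or B2 left out, which leaves 1 B library, the list median was -0.95 or -1.28, against 0.05 and 0.06 over all genes.

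Factors that make and mature the histone messages were read in the same way. Of 17 tested genes for transcription, 3′ end processing and decay of histone messages, 4 were higher (23.5%, against 11.0% of all genes tested) and the other 13 were not called, with a median of 0.61. Slbp, which encodes the stem-loop binding protein, was not called, at 29.3, 32.3 and 19.3 TMM-scaled CPM against 42.5 and 42.2 (log2 fold change 0.61, edgeR adjusted p = 0.169). The higher calls were Snrpb (3.40) and Snrpe (1.96), encoding Sm proteins of small nuclear ribonucleoproteins, Casp8ap2 (2.55), whose protein acts at histone gene loci, and Cpsf2 (1.38), encoding a subunit of the cleavage complex. Leaving out A2 or A3 gave 2 higher calls each in this list, where 3.46% and 3.57% of all genes tested were higher. Leaving out A1 gave 6 higher and 1 lower, where 20.8% and 15.0% of all genes were. With B1 or B2 left out, which leaves 1 B library, the list median was 0.61 or 0.54, against 0.05 and 0.06 over all genes. By library totals alone 14 of the 17 were higher, where 55.1% of all genes tested were.

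Chaperones carry the histone proteins. Of 18 tested, 4 were higher and 2 lower, or 22.2% and 11.1% against 11.0% and 12.4% of all genes tested, and the median of 0.11 was close to that of all genes (0.05). Nasp, encoding a chaperone of linker and core histones, rose by 1.77 on the log2 scale, Atrx by 1.72, Supt16, a subunit of FACT, by 1.98 and Asf1a by 2.39, while Ipo4, an importin for H3 and H4, fell by 2.08 and Rbbp4 fell by 1.72. Rbbp7, which had the highest mean log2 level per length of the list, was not called (0.36). Per length, Supt16 lay above Rbbp7 in B1 and B2, and Rbbp4 lay above it in A2. By library totals alone 13 were higher, where 55.1% of all genes tested were, and the other 5 were not called. Without A1 the list gave 6 higher and 2 lower calls, where 20.8% and 15.0% of all genes tested were called. Without A3 it gave 1 lower call (3.86% of all genes) and without A2 0 calls (3.46% higher and 3.64% lower). With B1 or B2 left out, which leaves 1 B library, the list median was 0.025 or 0.13, against 0.05 and 0.06 over all genes.

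Messages of the DNA replication machinery, whose products act in the same phase of the cell cycle, gave 3 higher and 7 lower calls of 42 tested (median -0.32). These are 7.14% and 16.7%, against 11.0% and 12.4% of all genes tested, so neither share lay far from the background. Mcm2 (-1.82), Mcm7 (-1.80) and Pold1 (-2.75), for the replicative helicase and a DNA polymerase, were lower, and Pole (1.73), Rpa3 (2.25) and Rfc4 (1.92), for another polymerase, the single-strand binding complex and the clamp loader, were higher. Ccne2, encoding a cyclin of S phase entry, had the highest mean log2 level per length of the list, though it led in A2 and A3 only. It was among the lower calls (-6.32, SE 1.57), but most of its counts in variation A came from A2, with 397, 26689 and 1548 counts against 2803 and 1654. Where in the gene these reads lie, and so whether they stem from its message, cannot be told from counts per gene. Without A2 the list gave 1 higher and 3 lower calls, without A3 1 and 2, and without A1 9 and 9. Of all genes tested, 3.46% were then higher and 3.64% lower without A2, 3.57% and 3.86% without A3, and 20.8% and 15.0% without A1. With B1 or B2 left out, which leaves 1 B library, the list median was -0.34 or -0.38, against 0.05 and 0.06 over all genes. By library totals alone the replication list gave 17 higher and 2 lower calls of 42, where 55.1% of all genes tested were higher. Under that scaling the medians of the 4 lists were 0.21, 2.02, 1.599 and 1.08, against 1.50 for all genes, so histone genes outside the clusters and replication genes lay below, and processing factors above, the bulk of genes under both scalings. The chaperone median lay within 0.1 of that of all genes under both, and below it with the length trend removed (-0.11 against -0.04), with libraries drawn down to the smallest total (0.01 against 0.03), without a filter on low counts (0.33 against 0.46), without A1 (0.10 against 0.16) and without B1 (0.025 against 0.05). As a further yardstick, 20 of 73 tested messages of cytosolic ribosomal proteins (27.4%) were lower and the other 53 were not called, with a median of -0.51.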

How the data were processed

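Per the file headers and the submitters' notes, reads were trimmed (Trimmomatic 0.36), aligned to mm10 (GRCm38) by STAR 2.7.3a and counted over GENCODE M24 exons by featureCounts 1.6.4. The deposited values are raw whole-number counts of each gene in 1 library per table, beside the exon length. No strand option was set, and reads with several alignments or over more than 1 gene were left out, which lowers the counts of near-identical and overlapping histone genes. Symbols were matched by gene ID to GENCODE M21 for 55144 of 55385 genes, including all 67 histone genes.

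The test of B against A used edgeR 4.0.16 (R 4.3.3): filterByExpr, TMM factors and the quasi-likelihood F-test (glmQLFit, glmQLFTest), with p-values adjusted by Benjamini-Hochberg across every tested gene. The SE is the log2 fold change divided by the square root of the F statistic. DESeq2 1.42.0 was an alternative, beside other normalizations, filters, a replicate block, a length trend, counts drawn down to the smallest library total, and each library left out. Every pair of libraries differed by more than counting noise, so none was a duplicate. TMM-scaled CPM used factors from 0.570 to 1.89. Shares have 95% Wilson intervals. CPM per kb used the deposited exon lengths. Stem-loops, and words of 30 bases shared between genes, were searched in the M21 transcripts with Python 3.11.15.

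The histone genes, the related lists and the tests were chosen with earlier results of these data known. Named in full were the 3 histone genes of each class with the highest mean log2(CPM per kb + 0.5) over the 5 libraries and the 3 largest calls in each direction. In each related list the gene highest by that mean and up to 3 calls a direction by adjusted p were named. Hist1h1d, Hist1h1e, Hist1h2an, Hist3h2a, Hist4h4, Slbp, H2afx, Asf1a, Cpsf2 and the H3.3 genes were added after their values were seen.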

Additional observations from a re-analysis of the deposited data

How the results depend on the processing

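Of 338 values of the 20 named histone genes under alternative settings, 277 kept direction and side of the threshold, 49 kept direction but were not called, 4 became called and 8 changed sign. By library totals alone the 49 genes gave 14 higher and 3 lower calls (28.6% and 6.12%, against 55.1% and 2.93% of all genes) with a median of 0.42, and Hist1h1b (0.67), Hist1h2ae (1.27), Hist1h2bj (0.42), Hist1h3c (0.36) and Hist1h3h (0.96) changed sign, since this scaling moves the median of all genes to 1.50. With the length trend removed 5 were higher and 18 lower (10.2% and 36.7%, against 9.59% and 13.7% of all genes). Tested against a fold change of 2, 4 were lower (8.16%, against 3.77% of all genes). Drawn down to the smallest total, 12 were lower of 33 tested (36.4%, against 11.7% of all genes). Without members that overlap another gene 1 was higher. Leaving out 1 library gave 1 to 5 higher and 1 to 23 lower calls, a median of -1.04 to -0.84, and -0.78 to 0.45 for Hist1h2ae (without A1 and without A2). The other normalizations, filters and gene sets and DESeq2 gave 2 to 4 higher and 15 to 20 lower calls. Over all genes these settings called 4.44% to 11.7% higher and 3.5% to 14.4% lower.

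Same-numbered libraries did not deviate together (correlations -0.10 and -0.03 over all genes, 0.0036 and 0.063 over the 49 genes), and the labels tie the numbers to no shared batch. With the replicate number as a block, 3 were higher and 13 lower, Hist1h1a being lost (1.09, edgeR adjusted p = 0.159) and Hist1h2an gained (over all genes 7.40% were higher and 7.90% lower), the median was -1.01 and Hist1h2ae was at 0.23. With the length trend also removed 12 were lower (24.5%, against 8.33% of all genes) and Hist1h2ae was at 0.48.

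The mean share of counts was 0.165% in variation A and 0.194% in variation B over genes other than rRNA and mitochondrial genes, 0.305% and 0.225% over protein-coding genes, 0.122% and 0.0776% over TMM effective sizes, and 0.110% in variation B without overlapping members. It stayed between 0.0727% and 0.0847% in variation A and between 0.143% and 0.145% in variation B with 1 library left out. Depth limits the A libraries: Hist1h2ad, Hist1h2ag and Hist1h2an rested there on at most 23 counts in a library. With 3 libraries against 2, a lost call does not show that a gene did not differ.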
